A study of Mus musculus with 8 samples.

Results

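The 36 genes described here encode cyclins, cyclin-dependent kinases (CDKs), E2F transcription factors, replication proteins and mitotic regulators, and were listed by name, with no threshold on their values. All 36 were found among the 36047 genes with estimated counts, and all 36 passed the filter on low counts that left 17997 genes for testing. RNA was measured in muscle stem cells (MuSCs) to see which transcripts differ after dietary loss of vitamin A (VA), the precursor of retinoic acid. MuSCs of 3 mice on a VA-free diet were compared with those of 2 mice on control chow. Every mouse was a Pax7-nTnG male aged 5 to 6 months, in which a tamoxifen-activated Cre driven by Pax7 switches a nuclear reporter from red to green. All animals, controls included, received tamoxifen at the end of the 8 weeks of diet, and green cells were sorted from gastrocnemius and quadriceps into lysis reagent. The control chow was not a purified diet differing in VA alone, and the libraries hold whatever entered the green gate. The RNA of a mouse was split into technical replicates A and B, which share an animal. Of the VA-free mice, libraries 1B, 2A, 3A and 3B were sequenced, and of the control mice 1A, 1B, 2A and 2B, which makes 8.

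Cells enter the cycle when D-type cyclins with Cdk4 or Cdk6, and then E-type cyclins with Cdk2, release E2F factors from the retinoblastoma protein. E2F targets load the MCM helicase onto replication origins and supply the fork with nucleotides, and a later wave of genes around Cdk1 and its B-type cyclins drives mitosis. MuSCs of uninjured adult muscle are largely quiescent, with the mitotic wave low, and D-type cyclins appear as they leave quiescence.

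Library totals lay between 44831232 and 88650428 estimated counts. All 10 MuSC markers checked, among them Pax7, Myf5 and Calcr, passed the test as higher on the VA-free diet, with a summed level of 5363 to 6084 CPM (library-size normalized counts) against 1986 to 3553 CPM in control libraries. The summed markers of endothelial cells (255 to 347 against 1277 to 3040 CPM) and of fibro-adipogenic progenitors (1008 to 1235 against 2824 to 3654 CPM) were lower in every VA-free library than in every control library. The same held for the sums of all 8 lists of other cell types, no marker of which was at 0 in all libraries. Gene by gene, 10 of 10 endothelial and 7 of 9 fibro-adipogenic progenitor markers passed as lower. Of macrophage and myofiber markers, 4 of 10 and 4 of 8 did. Of 8 pericyte and smooth muscle markers, 5 passed as lower and 1 as higher, where 22.5% and 18.9% of all genes tested did. The macrophage sum was 27.7 to 165 CPM in VA-free libraries, 193 to 227 CPM in control 1 and 712 to 963 CPM in control 2. These marker levels moved with diet, and in part with mouse, beside every comparison that follows. Unless stated otherwise their part in the results was not tested.

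Of the 36 genes, 7 differed between diets at a Benjamini-Hochberg (BH) adjusted p under 0.05 in the quasi-likelihood (QL) test of edgeR, or 19.4%, where 41.4% of all genes tested did. Ccnd2, Pcna, Tyms, Birc5, Cdc6 and Cdk2 fell on the VA-free diet, 16.7% of the genes against 22.5% of all genes tested. E2f2 rose, 2.78% against 18.9%. On log2(TPM + 1), tested with limma, the split was 3 lower and 8 higher, where 14.7% and 32.2% of all genes tested were. Mice on different diets did not overlap for 13 of 36 genes (36.1%, against 63.3% of all genes) and the single libraries did not overlap for 8 (41.3% of all genes). The log2 fold change, VA-free over control, was below 0 for 25 of 36 genes with a median of -0.17, where all genes tested had a median of 0.003. In bulk RNA, fewer cells making a transcript and less of it per cell cannot be told apart. Per unit of length, Cdk4 was the most abundant of the 36 in control mice at 418 ± 19.7 TPM (length-scaled transcript share; SD, n = 2), followed by Pcna, Ccnd1 and Ccnd3 at 229 ± 26.9, 210 ± 3.65 and 207 ± 8.02 TPM (SD, n = 2). The last 3 of these levels lie within their spread of each other. Bub1 was lowest at 2.38 ± 1.45 TPM (SD, n = 2).

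**Figure D1:**
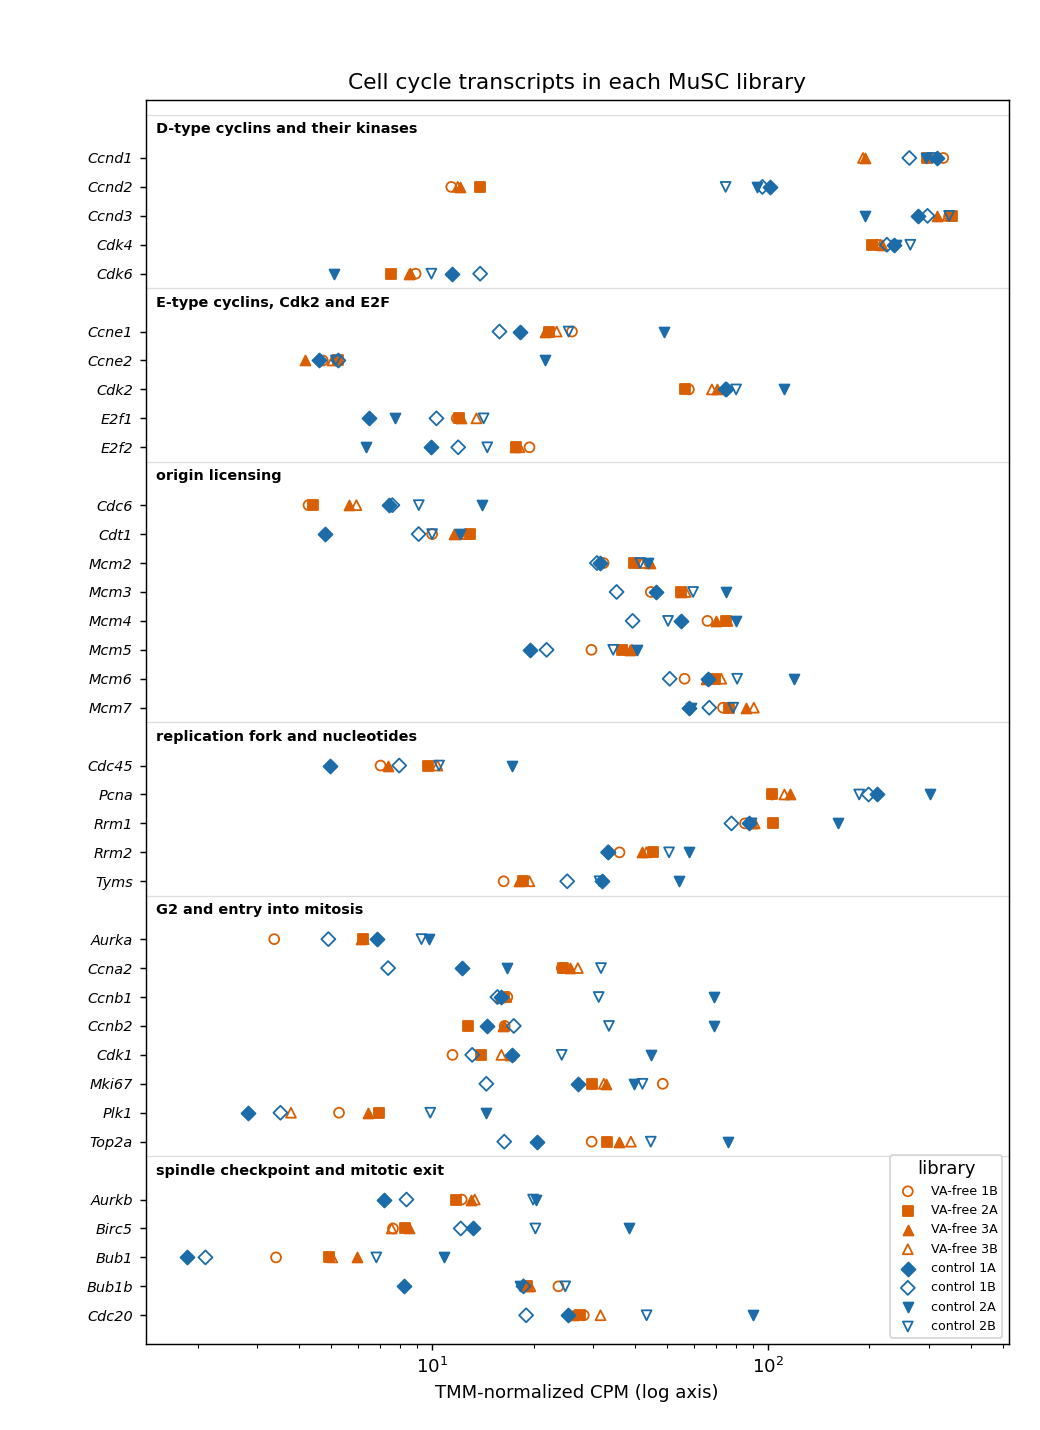
Level of each of the 36 genes in each library, in TMM-normalized CPM on a log axis, grouped by role (orange, VA-free; blue, control; filled and open symbols, technical replicates A and B). Ccnd2 and Pcna separate the diets. Ccnb1, Plk1, Top2a, Aurkb, Bub1 and Cdc20 instead place control 2A and 2B above the VA-free libraries and control 1A and 1B at or below them.

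Among the D-type cyclins and their kinases, which act first in G1, the largest difference was in Ccnd2, which encodes cyclin D2 (chromosome 6 of GRCm38, 127125162 to 127152193, minus strand). Ccnd2 was at 11.4, 13.8, 12.1 and 11.9 CPM in the VA-free libraries (1B, 2A, 3A, 3B) and at 101, 96.03, 92.5 and 74.6 CPM in the control libraries (1A, 1B, 2A, 2B). Every VA-free library was far below every control library, and the libraries within a diet were close together. Normalization factors were computed separately for libraries and for mice, so a mouse's CPM can lie slightly outside those of its libraries. The means were 12.5 ± 1.16 CPM (SD, n = 3 mice) and 91.1 ± 15.3 CPM (SD, n = 2), a 7.27-fold lower level (log2 fold change -2.86, standard error 0.15, BH-adjusted p = 0.000212, edgeR QL test). The summed markers of other cell types also differed by diet, and several differed between the control mice in the direction of Ccnd2. In control 1A, 1B, 2A and 2B the endothelial sum was 2976, 3040, 1277 and 1999 CPM, the fibro-adipogenic progenitor sum 3397, 3654, 2824 and 3243 CPM and the tenocyte sum 1065, 1012, 591 and 851 CPM. Within control 2 these sums were lower in 2A than in 2B, whereas Ccnd2 was higher in 2A. The part of other cell types in the Ccnd2 difference was not tested. The other D-type cyclins did not pass. Ccnd1 (cyclin D1; chromosome 7, 144929931 to 144939925) was at 332, 296, 193 and 191 CPM in the VA-free libraries and 317, 263, 294 and 308 CPM in the control libraries. The diets overlapped for Ccnd1, and VA-free mouse 3 was the lowest (log2 fold change -0.10, standard error 0.23). On TPM, or without that mouse, the sign of the Ccnd1 difference turned. Ccnd3 (cyclin D3; chromosome 17, 47505051 to 47599691) was at 347 ± 11.4 CPM on the VA-free diet and 281 ± 23.3 CPM on the control diet (SD, n = 3 and 2), with log2 fold change 0.30 (standard error 0.12, BH-adjusted p = 0.0739, edgeR QL test). It passed without control library 1B (0.35), with DESeq2 on the 5 mice (0.29) and on log2(TPM + 1) (0.71). Over the fits that left out a mouse or library the Ccnd3 value ran from 0.11 to 0.48, and was 0.39 without control mouse 1. The kinases Cdk4 and Cdk6, partners of these cyclins, gave log2 fold changes of -0.18 and -0.27 with standard errors of 0.11 and 0.27. Cdk6 was at 0.19 without control mouse 1 and at -0.63 without control mouse 2. Cdk4 lay between 204 and 218 CPM in VA-free libraries and between 226 and 265 CPM in control libraries, so the libraries did not overlap although the difference missed the threshold. The Cdk4 difference was positive with the gene length trend of each mouse taken out, and on TPM.

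Because each cyclin is compared with the other two in the same library, the make-up of the D-type pool does not depend on scaling between libraries. Ccnd2 made up 3.26% ± 0.78 of summed D-type cyclin TPM on the VA-free diet (SD, n = 3) and 19.3% ± 1.91 on the control diet (SD, n = 2). The share of Ccnd3 was 55.0% ± 5.28 and 39.8% ± 0.636 (SD, n = 3 and 2), and that of Ccnd1 41.8% ± 6.06 and 40.9% ± 2.54 (SD, n = 3 and 2). In single libraries the Ccnd2 share was 2.55% to 4.90% on the VA-free diet and 14.3% to 21.6% on the control diet. A two-sided exact permutation test over the 5 mice gave p = 0.2 for Ccnd2 and for Ccnd3 and p = 1 for Ccnd1 (0.3, 0.3 and 1 after Benjamini-Hochberg adjustment over the 3 shares), and 0.2 is the smallest p this design allows.

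**Figure D2:**
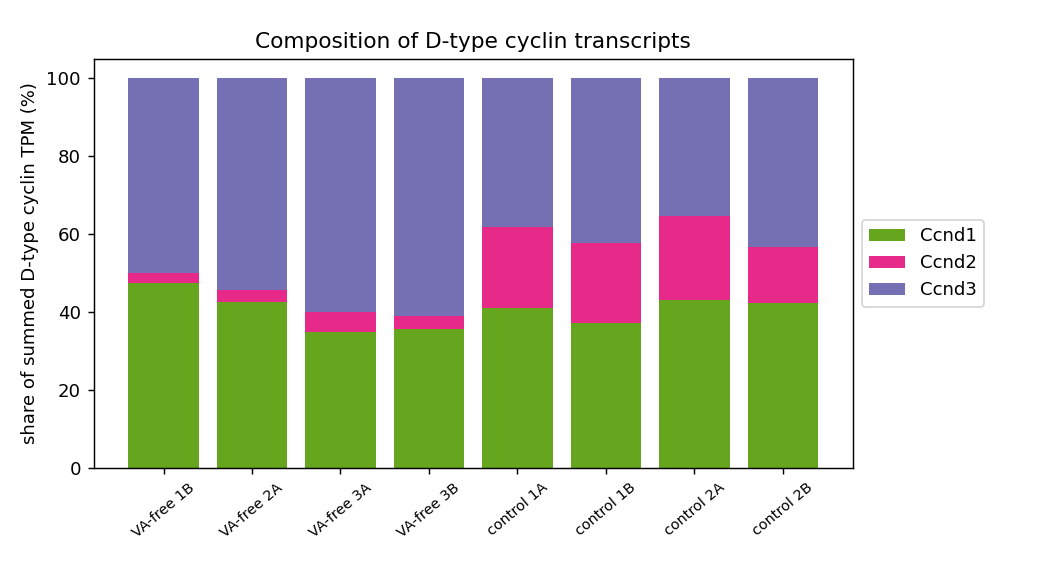
Share of Ccnd1, Ccnd2 and Ccnd3 in the summed D-type cyclin TPM of each library, in percent. The Ccnd2 share is 2.55% to 4.90% in the 4 VA-free libraries and 14.3% to 21.6% in the 4 control libraries.

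Of the genes that act at the G1/S step, E2f2 rose and Cdk2 fell. E2f2, an E2F factor that activates S-phase genes (chromosome 4, 136172394 to 136196057), was at 19.5, 17.7, 17.6 and 18.2 CPM in the VA-free libraries and 9.90, 11.9, 6.34 and 14.6 CPM in control 1A, 1B, 2A and 2B. All VA-free libraries were above all control libraries. The means were 18.6 ± 1.15 CPM (SD, n = 3) and 10.8 ± 0.627 CPM (SD, n = 2), with log2 fold change 0.79 (standard error 0.16, BH-adjusted p = 0.00733, edgeR QL test). The E2f2 difference missed the threshold without control library 2B (1.06). Its relative E2f1 was at 12.4 ± 0.562 CPM and 9.66 ± 1.58 CPM (SD, n = 3 and 2) and missed the threshold, with log2 fold change 0.36 (standard error 0.18), but passed on log2(TPM + 1) at 0.67. Cdk2, the kinase partner of E-type cyclins (chromosome 10, 128697939 to 128705031), was at 58.0, 56.7, 70.5 and 67.9 CPM in the VA-free libraries and 74.7, 74.7, 112 and 80.2 CPM in the control libraries. The diets did not overlap, and control 2A was the highest. The log2 fold change of Cdk2 was -0.45 (standard error 0.14, BH-adjusted p = 0.0404, edgeR QL test). It passed in 11 of 23 alternative analyses and was at 0.062 on log2(TPM + 1). It missed the threshold without VA-free mouse 1 (-0.41), VA-free mouse 2 (-0.39), control mouse 2 (-0.32) or control library 1A (-0.44), 2A (-0.35) or 2B (-0.63). The E-type cyclins did not pass in the edgeR QL test without a length offset, with log2 fold changes of -0.15 for Ccne1 and -0.84 for Ccne2 and standard errors of 0.28 and 0.37. Without control mouse 1 both passed as lower (-0.56 and -1.35), and without control mouse 2 neither passed (0.43 and -0.048). Ccne2 also passed with a transcript length offset (-1.07). Ccne1 was lower in control 1A and 1B (18.3 and 15.8 CPM) and higher in control 2A (49.1 CPM) than in any VA-free library (21.6 to 26.0 CPM). Ccne2 was at 21.7 CPM in control 2A and at 4.18 to 5.25 CPM in the other 7 libraries, control 2B included, which is labelled as the same animal.

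Licensing, the loading of the MCM helicase onto origins, showed 1 difference among 8 genes (12.5%, against 41.4% of all genes tested). Cdc6, a loader of the helicase (chromosome 11, 98907801 to 98923940), was at 4.28, 4.42, 5.64 and 5.94 CPM in the VA-free libraries and 7.44, 7.60, 14.0 and 9.11 CPM in the control libraries. No VA-free library reached the control libraries. The means were 4.89 ± 0.847 CPM (SD, n = 3) and 9.41 ± 2.32 CPM (SD, n = 2), 1.92-fold lower on the VA-free diet (log2 fold change -0.94, standard error 0.25, BH-adjusted p = 0.0231, edgeR QL test). Cdc6 missed the threshold without VA-free mouse 1 (-0.87), VA-free mouse 2 (-0.88), control mouse 2 (-0.67) or control library 2B (-1.18), and on log2(TPM + 1) at -0.55. In 17 of 23 alternatives it passed. Cdt1, the other loader, had log2 fold change 0.42 (standard error 0.24), and passed as higher on log2(TPM + 1) (0.93). Leaving out a mouse or library gave Cdt1 values from 0.15 to 0.74, the latter without control mouse 2. The helicase subunits Mcm2 to Mcm7 gave log2 fold changes between -0.25 (Mcm6) and 0.37 (Mcm4), with standard errors of 0.12 to 0.24, and none passed in the edgeR QL test of the 5 mice without a length offset. Mcm4 was at 72.1 ± 4.05 CPM and 55.7 ± 9.10 CPM and Mcm7 at 80.4 ± 7.87 CPM and 65.6 ± 1.97 CPM on the VA-free and control diets (SD, n = 3 and 2), and for both the mice did not overlap. Leaving out a mouse or library gave values from 0.13 to 0.54 for Mcm4 and from -0.031 to 0.73 for Mcm5. The upper values were those without control mouse 2. Mcm4 passed as higher without control library 2A (0.53). With a transcript length offset Mcm4 (0.40) and Mcm7 (0.37) passed as higher, and on log2(TPM + 1) Mcm4 (0.80), Mcm5 (0.75) and Mcm7 (0.75) did. Mcm6 was below 0 with all mice, at -0.54 without control mouse 1 and at 0.10 without control mouse 2. Per unit of length the helicase subunits kept a narrow range in each library, the most abundant being 2.59 to 3.41 times the least abundant. Their summed TPM was 215, 232, 231 and 246 in the VA-free libraries and 131, 124, 180 and 181 in the control libraries, listed in the same order. These TPM sums did not overlap between the diets, in contrast to the CPM of the licensing group (317 to 395 and 262 to 444 CPM). On log2(TPM + 1) the median log2 fold change of all genes was 0.19.

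At the fork, Pcna and Tyms fell. Pcna, which encodes the sliding clamp of the replicative polymerases (chromosome 2, 132249162 to 132253314), was at 102, 102, 116 and 112 CPM in the VA-free libraries and 211, 199, 304 and 186 CPM in control 1A, 1B, 2A and 2B. The lowest control library was well above the highest VA-free library. The means were 108 ± 6.69 CPM (SD, n = 3) and 223 ± 15.4 CPM (SD, n = 2), 2.07-fold lower on the VA-free diet (log2 fold change -1.05, standard error 0.11, BH-adjusted p = 0.000701, edgeR QL test). Ccnd2 and Pcna passed in all 23 alternative analyses, and the Pcna difference was smallest on log2(TPM + 1), at -0.52. Tyms, thymidylate synthase (chromosome 5, 30058202 to 30073617), was at 16.3, 18.7, 18.1 and 19.4 CPM in the VA-free libraries and 32.0, 25.2, 54.4 and 31.4 CPM in the control libraries. The libraries did not overlap, and control 2A was again the highest. The log2 fold change of Tyms was -0.96 (standard error 0.17, BH-adjusted p = 0.00462, edgeR QL test). Rrm1 and Rrm2, the subunits of ribonucleotide reductase, differed by -0.12 and -0.052 on the log2 scale with standard errors of 0.16 and 0.20, and Cdc45, the helicase activator, by -0.20 with a standard error of 0.32. For these 3 genes every VA-free mouse lay between the 2 control mice.

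With all mice and the filter on low counts, 41.4% of all genes tested were called in the edgeR QL test. None of the 8 genes of G2 and mitotic entry was, in either direction. Their median log2 fold change was -0.44 (0.080 on log2(TPM + 1), where all genes shifted by 0.19), from -1.08 for Ccnb2 to 0.57 for Ccna2. The Ccnb2 value rested on control mouse 2, at -1.66 without control mouse 1 and -0.10 without control mouse 2. Ccnb1 and Ccnb2, the B-type cyclins, were close to each other in every library. Ccnb1 was at 16.7, 16.3, 15.9 and 16.6 CPM in the VA-free libraries, 16.0 and 15.6 CPM in control 1A and 1B, and 69.1 and 31.3 CPM in control 2A and 2B. Control mouse 1 thus stood with the VA-free mice and control mouse 2 stood above them. Ccnb2 was at 12.8 to 16.4 CPM in the VA-free libraries, at 14.5 and 17.5 CPM in control 1A and 1B, and at 69.1 and 33.5 CPM in control 2A and 2B. Cdk1, the kinase these cyclins activate, was at 11.5 to 17.0 CPM in VA-free libraries, at 17.2 and 13.1 CPM in control mouse 1, and at 44.6 and 24.3 CPM in control mouse 2. DESeq2 on the 5 mice called Ccnb1, Ccnb2 and Cdk1 lower, at adjusted p = 0.0345, 0.0176 and 0.0413. With the filter on low counts the edgeR QL test gave a BH-adjusted p of 0.0945, 0.0723 and 0.0880. Without that filter Ccnb1 (-0.96), Ccnb2 (-1.11) and Cdk1 (-0.80) also passed as lower. Ccnb2 passed as well with DESeq2 on the 8 libraries as samples (-1.10). That fit counts libraries A and B of 1 mouse as independent samples, which they are not. Top2a, the topoisomerase that untangles replicated chromosomes, was at 29.8, 33.1, 35.9 and 39.0 CPM in the VA-free libraries and 20.5, 16.4, 76.1 and 44.7 CPM in control 1A, 1B, 2A and 2B. The VA-free libraries all lay in the gap between the control mice. Mki67, the proliferation marker Ki67, was at 48.5, 29.8, 32.9 and 32.4 CPM and at 27.2, 14.5, 39.7 and 42.2 CPM in the same order, with log2 fold change 0.28 (standard error 0.31). Plk1 and Aurka, kinases of spindle assembly, gave log2 fold changes of -0.35 and -0.53 with standard errors of 0.49 and 0.33. Ccna2 (cyclin A2) was the member of this group whose mice did not overlap, at 25.4 ± 1.21 CPM and 17.1 ± 9.52 CPM on the VA-free and control diets (SD, n = 3 and 2), and it missed the threshold (log2 fold change 0.57, standard error 0.33). The Ccna2 difference was 0.090 without control mouse 1, and it passed as higher without control mouse 2 (1.29) and on log2(TPM + 1) (1.00).

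Of the 5 spindle checkpoint and mitotic exit genes, Birc5 fell. Birc5, which encodes survivin, a subunit of the chromosomal passenger complex (chromosome 11, 117849251 to 117855743), was at 7.63, 8.30, 8.49 and 7.56 CPM in the VA-free libraries and 13.2, 12.1, 38.6 and 20.3 CPM in the control libraries. All control libraries were above the VA-free libraries, and control mouse 2 was above control mouse 1. The means were 8.08 ± 0.249 CPM (SD, n = 3) and 20.5 ± 10.5 CPM (SD, n = 2), with log2 fold change -1.35 (standard error 0.30, BH-adjusted p = 0.0116, edgeR QL test). It passed in the fit without control mouse 1 (-1.79) and in that without control mouse 2 (-0.71), and missed the threshold on log2(TPM + 1), at -0.87. Aurkb, the kinase of that complex, and the checkpoint genes Bub1 and Bub1b gave log2 fold changes of -0.13, -0.17 and 0.28 with standard errors of 0.35, 0.55 and 0.23. Cdc20, which activates the anaphase-promoting complex, was at 26.3 to 31.7 CPM in the VA-free libraries, at 25.3 and 19.0 CPM in control 1A and 1B, and at 90.3 and 43.4 CPM in control 2A and 2B.

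By group medians, the mitotic and checkpoint genes differed more between the 2 control mice than between the diets, although Birc5 differed more between the diets (-1.35) than between the control mice (1.09). Control mouse 2 was above control mouse 1 for 31 of 36 genes (7876 of 17997 genes tested), including all 8 licensing genes, all 5 fork genes and all 13 genes of mitosis and its checkpoint. The median log2 ratio of control 2 over control 1 was 1.36 for the G2 and mitotic entry genes and 1.27 for the checkpoint genes, against -0.053 for all genes tested. The median log2 range of the 3 VA-free mice for the same groups was 0.41 and 0.18. Control 2A was the highest library for 23 of 36 genes, or 63.9% against 27.8% of all genes tested. Library 2B, which the labels give as its technical replicate, was lower by a median of 0.66 on the log2 scale for both groups. The labelled replicates of control 1 differed by medians of 0.35 and -0.17 (A over B) and those of VA-free 3 by -0.021 and -0.019. The labels of 2A and 2B were taken as given, and whether they share an animal was not tested. For 11 of 36 genes, or 30.6%, the 3 VA-free mice lay between the 2 control mice, where 6.97% of all genes tested did, and in 10 of these control mouse 2 was the higher one. The summed CPM of the 13 mitotic and checkpoint genes was 231, 215, 229 and 235 across the VA-free libraries, 173 and 153 in control 1A and 1B, and 518 and 342 in control 2A and 2B. The macrophage marker sum was also higher in control 2 (963 and 712 CPM in 2A and 2B) than in control 1 (227 and 193 CPM), and its part in this difference was not tested. In the VA-free libraries the macrophage sum was below that of control 1, at 74.5, 165, 31.9 and 27.7 CPM, whereas the mitotic sum was above it.

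**Figure D3:**
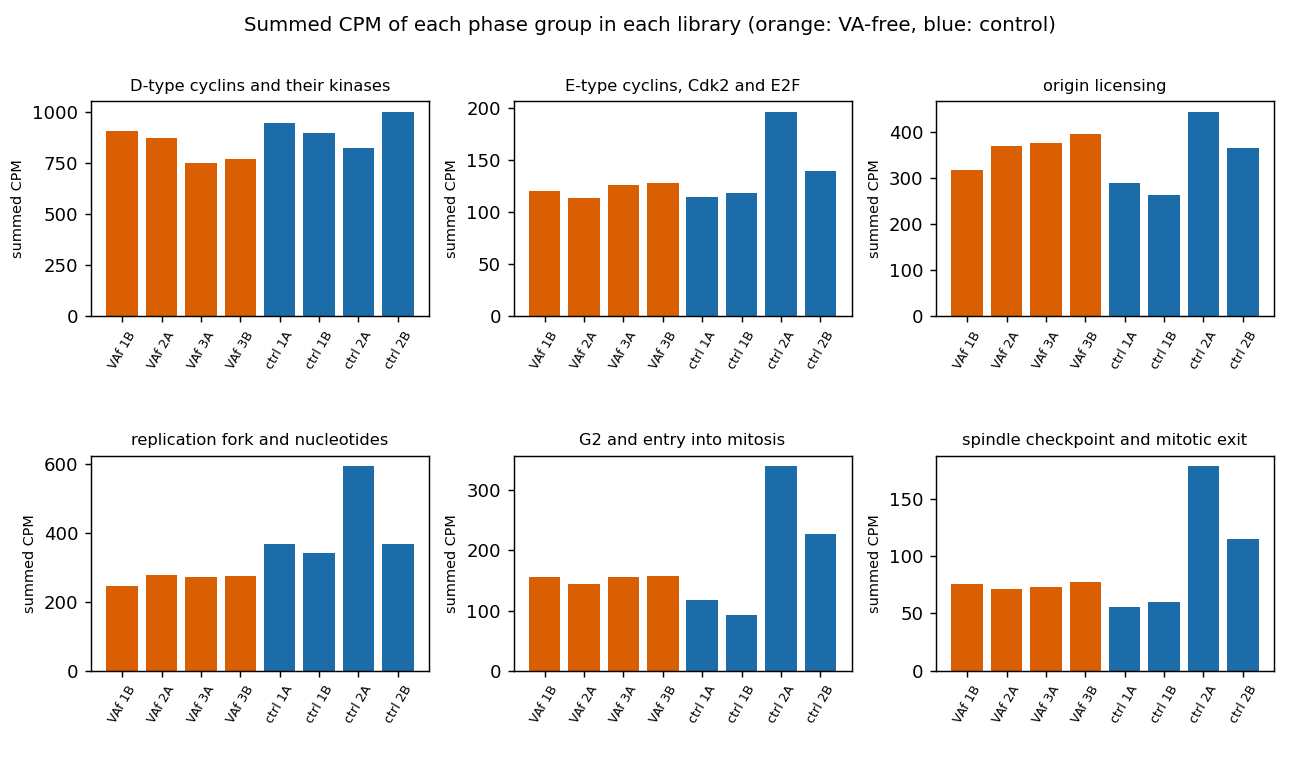
Summed CPM of the genes of each of the 6 role groups in each library (orange, VA-free; blue, control). For G2 and mitotic entry the VA-free libraries sit at 144 to 158 CPM, between control 1 (117 and 92.9 CPM) and control 2 (340 and 227 CPM).

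**Figure D4:**
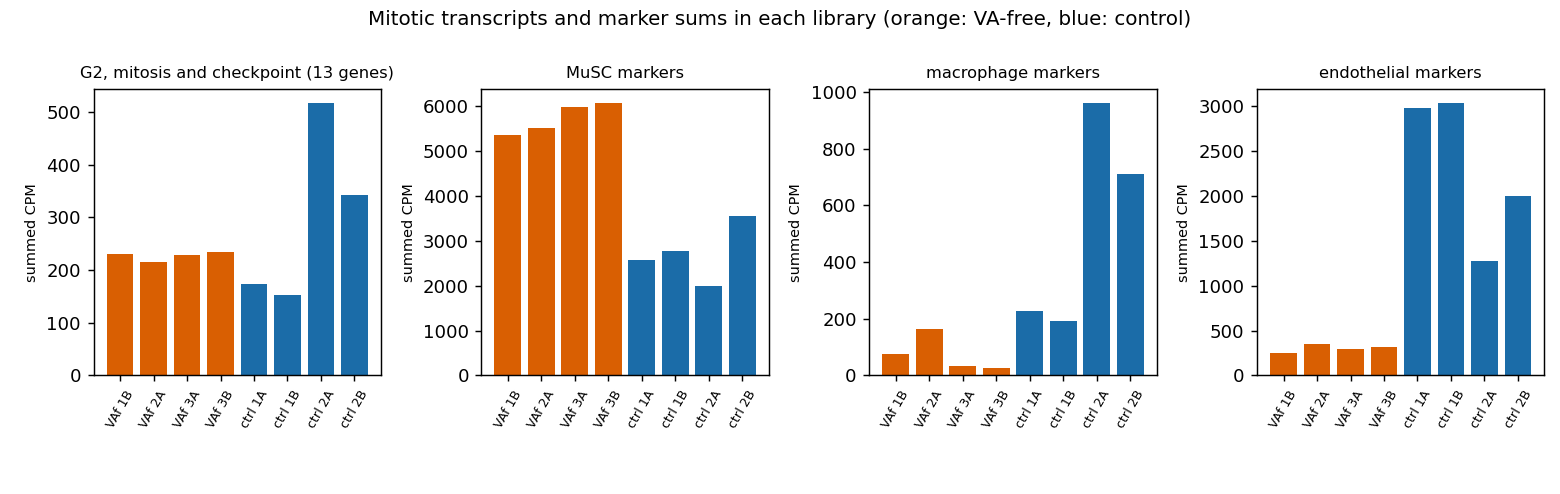
Summed CPM of the 13 mitotic and checkpoint genes and of the MuSC, macrophage and endothelial markers in each library (orange, VA-free; blue, control). The mitotic and macrophage sums are both highest in control 2A and 2B, while the MuSC sum is highest in the 4 VA-free libraries.

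For 15 of the 26 replication and mitosis genes the direction of the diet difference turned with the control mouse that was left out. The share of all genes that turned was not computed, so this count describes these genes only. In a fit without control mouse 1, in which the lone control mouse is assumed to vary like the VA-free mice, 16 of the 36 genes were called lower and 2 higher, where 20.4% and 19.0% of all genes tested were. Without control mouse 2, 5 were called lower and 7 higher, with 21.3% and 17.5% for all genes tested. Ccnd2, Pcna, Tyms and Birc5 were lower and E2f2 was higher in both fits. Top2a and Aurkb were called in both fits in opposite directions. Top2a had log2 fold change -0.77 without control 1 and 0.82 without control 2, and Aurkb of -0.63 and 0.65. Ccnb1 had -1.52 and 0.020, and Cdc20 -1.15 and 0.30. The median of the G2 group was -0.90 without control 1 and 0.39 without control 2.

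**Figure D5:**
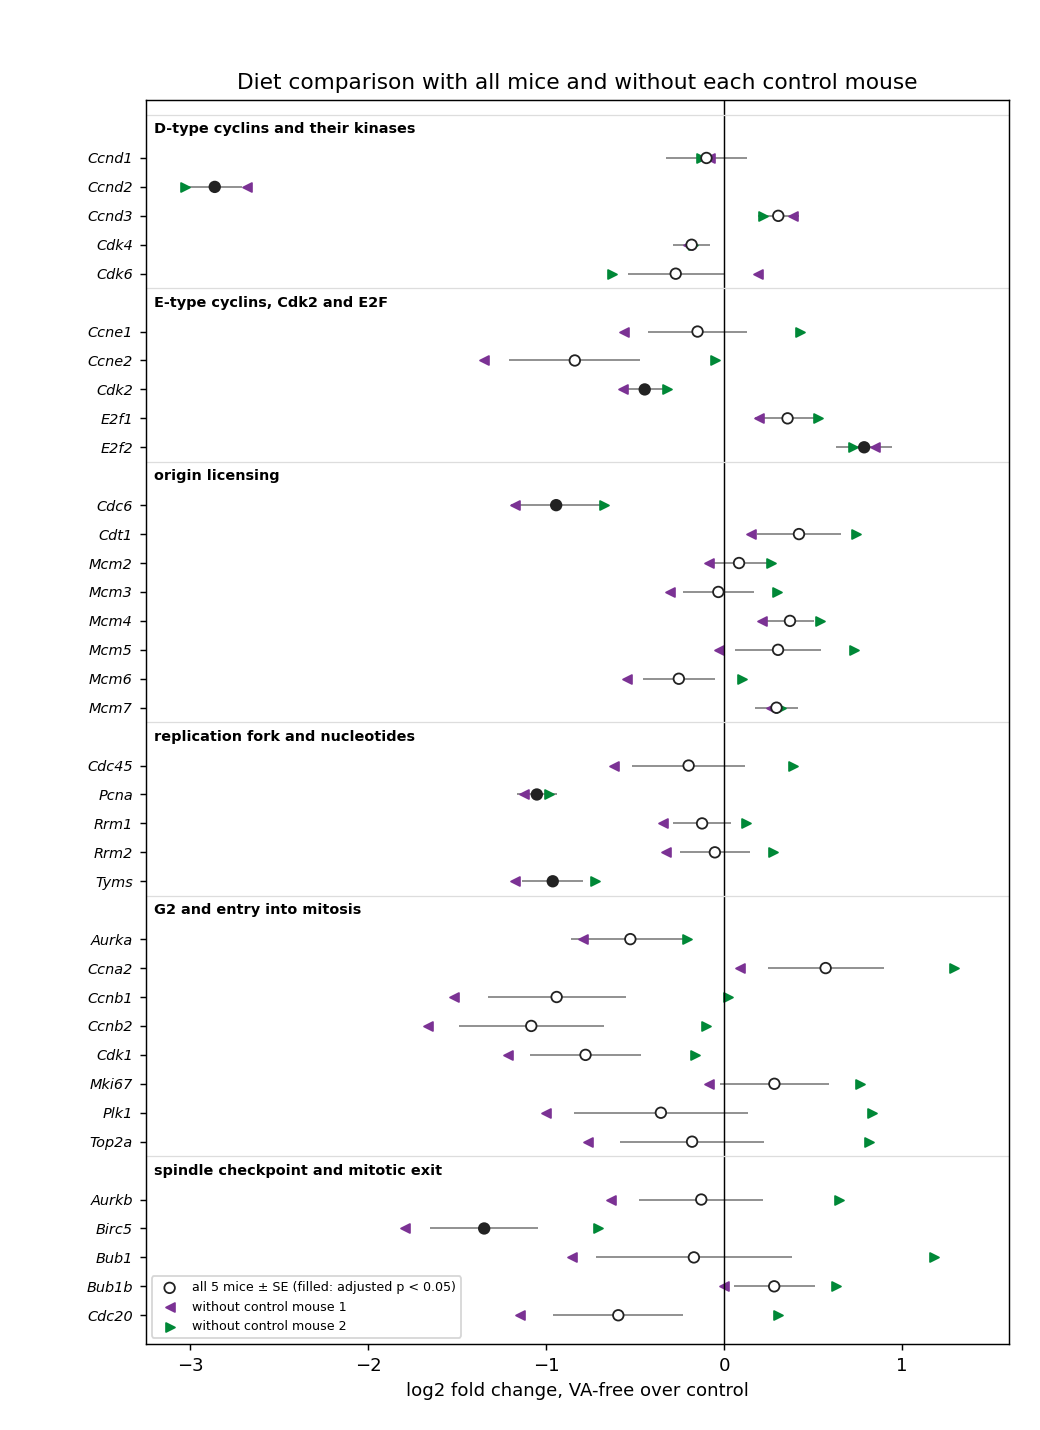
Log2 fold change (VA-free over control) of each gene with all 5 mice (circles with standard errors, filled where the adjusted p is under 0.05) and without control mouse 1 or 2 (triangles). The triangles lie on opposite sides of 0 for several replication and mitosis genes, Top2a (-0.77 and 0.82) among them. They lie on the same side for Ccnd2, Pcna, Tyms, Birc5 and E2f2.

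The promoters of the 36 genes were searched for known cell cycle words, which were not used to choose the genes. RefSeq promoters (GRCm38.p6, 250 bases before to 50 after a start) were held for 30 of the 36 genes and were searched on both strands. The E2F words TTTCGCGC and TTTGGCGC, which may overlap each other where they lie on opposite strands, were found in 7 of 30 genes (23.3%) against 0.813% of all promoters, and in 5 of 7 licensing genes. The cell cycle homology region words TTTGAA and TTCGAA, bound in known mitotic promoters by the MuvB complex, were found in 13 of 30 (43.3%) against 19.2%, in 6 of 7 G2 genes and in 3 of 4 checkpoint genes. CCAAT, the NF-Y word, was found in 22 of 30 (73.3%) against 37.4%, and in all 7 G2 genes. Direct repeats of the retinoic acid receptor word (AGGTCA or AGTTCA or GGGTCA or GGTTCA) with spacers of 5 or 2 bases were found in none of the 30, and in 0.0974% and 0.268% of all promoters. Such a match is a description of letters and not a measured binding site. A gene with several listed starts counted once if any start held the word, whereas the shares of all promoters count each start. A few promoters are shown, 5′ to 3′ on the strand of the gene, with every searched word in capitals. Mcm6 stands for licensing, Ccnb2 and Top2a for mitosis, Pcna for the genes that fell and E2f2 for the gene that rose.
Mcm6, chr1:128359656-128359955, minus strand: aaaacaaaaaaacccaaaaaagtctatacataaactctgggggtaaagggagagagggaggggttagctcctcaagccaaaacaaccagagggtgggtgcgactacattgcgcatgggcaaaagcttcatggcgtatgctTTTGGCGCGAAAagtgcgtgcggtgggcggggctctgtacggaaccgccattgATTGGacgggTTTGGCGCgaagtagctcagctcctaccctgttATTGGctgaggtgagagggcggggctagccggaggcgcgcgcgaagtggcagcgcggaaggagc
Ccnb2, chr9:70421505-70421804, minus strand: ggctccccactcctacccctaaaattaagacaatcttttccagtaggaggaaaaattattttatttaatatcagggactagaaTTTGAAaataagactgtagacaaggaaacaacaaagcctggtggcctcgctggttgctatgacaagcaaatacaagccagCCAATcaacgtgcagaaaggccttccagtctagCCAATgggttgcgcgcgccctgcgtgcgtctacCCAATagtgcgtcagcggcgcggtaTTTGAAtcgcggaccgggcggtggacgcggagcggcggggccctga
Top2a, chr11:99024140-99024439, minus strand: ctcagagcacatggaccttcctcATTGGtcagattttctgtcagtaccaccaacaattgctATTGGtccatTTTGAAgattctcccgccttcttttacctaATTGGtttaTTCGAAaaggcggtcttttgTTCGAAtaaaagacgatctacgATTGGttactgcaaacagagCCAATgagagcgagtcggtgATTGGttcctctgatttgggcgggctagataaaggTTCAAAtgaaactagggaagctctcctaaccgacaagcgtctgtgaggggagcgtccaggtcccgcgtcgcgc
Pcna, chr2:132253131-132253430, minus strand: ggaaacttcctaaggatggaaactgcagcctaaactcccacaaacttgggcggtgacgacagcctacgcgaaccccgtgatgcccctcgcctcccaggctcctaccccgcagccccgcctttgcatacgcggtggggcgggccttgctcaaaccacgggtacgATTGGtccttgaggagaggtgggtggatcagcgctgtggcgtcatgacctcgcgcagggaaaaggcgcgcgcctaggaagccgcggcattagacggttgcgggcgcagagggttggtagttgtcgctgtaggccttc
E2f2, chr4:136172024-136172323, plus strand: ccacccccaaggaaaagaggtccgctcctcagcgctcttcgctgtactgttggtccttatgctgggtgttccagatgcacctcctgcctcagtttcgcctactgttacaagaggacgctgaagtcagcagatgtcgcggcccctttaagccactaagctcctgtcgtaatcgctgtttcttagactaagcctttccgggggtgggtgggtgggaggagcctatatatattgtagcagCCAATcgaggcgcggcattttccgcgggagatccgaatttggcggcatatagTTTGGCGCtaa
The Ccnb2 and Top2a promoters hold homology region and CCAAT words and no E2F word, and that of Mcm6 holds E2F and CCAAT words. All 3 genes were higher in both libraries of control 2 than in those of control 1. Pcna, which fell in all alternatives, holds 1 CCAAT word and none of the others. The E2f2 promoter shown holds an E2F word and a CCAAT word, and a second listed E2f2 start holds 1 homology region word and 3 CCAAT words.

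Gene length moved with diet across the whole data set and touches several of the calls. Over all genes tested, the log2 fold change rose by 0.36 for each doubling of transcript length, with a median of -0.69 among the shortest genes (up to 1162 bases) and 0.57 among the longest (from 3534 bases). The 36 genes had a median length of 2179 bases, against 2122 for all genes tested. With this trend removed, Ccnd2, Pcna, Cdc6 and Cdk2 were called lower and E2f2 and Cdk4 higher, while Tyms (-0.32) and Birc5 (-0.73) missed the threshold. Among transcripts of one gene, the shorter one fell more for some of the called genes and not for others. For Birc5, the 947-base transcript Birc5-201 was 2.94-fold lower on the VA-free diet by mean of mice in CPM. The 3334-base Birc5-202 was 1.59-fold higher, but at a low level at which the libraries overlapped. It was at 0.859 to 1.26 CPM in VA-free and 0.370 to 1.11 CPM in control libraries. For Tyms, the 3163-base Tyms-201 was 1.41-fold lower and the 618-base Tyms-205 3.16-fold lower. For Ccnd2, the 6330-base Ccnd2-201 was 8.18-fold lower, the 627-base Ccnd2-206 6.46-fold lower and the 415-base Ccnd2-207 6.25-fold lower, so the longest transcript differed most. For Pcna, the 1518-base Pcna-201 was 2.24-fold lower and the 589-base Pcna-203 1.56-fold lower, and for E2f2 the 4739-base E2f2-201 was 1.70-fold higher and the 426-base E2f2-202 1.97-fold higher. The kit does not mark strand, and 9 of the 36 genes overlap another tested gene on the opposite strand. Among the called genes this concerns Cdk2, which overlaps Pmel, so reads shared by the pair could not be told apart.

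Other cell cycle genes, listed by role, gave counts of the same kind. These come from the fit with all mice and no correction for gene length. Of 116 tested, 10 rose and 29 fell, or 8.62% and 25.0%, where 18.9% and 22.5% of all genes tested did, so the share that fell was near that of all genes. Their median log2 fold change was -0.25. For 22 of them (19.0%, against 6.97% of all genes tested) the VA-free mice lay between the 2 control mice. Among the genes that rose, those with the smallest adjusted p were Cdc25b, a phosphatase that activates Cdk1 (log2 fold change 1.35, standard error 0.13), Foxm1, a transcription factor of mitotic genes (1.22, standard error 0.19), and Tfdp2, a partner of E2F factors (0.96, standard error 0.15). Foxm1 was at 15.3 to 20.1 CPM in VA-free libraries and at 4.31, 9.35, 2.86 and 13.6 CPM in control 1A, 1B, 2A and 2B. It was thus lowest in control 2A, where its known mitotic target Ccnb1 was highest. Among the genes that fell, those with the smallest adjusted p were Rpa3, a subunit of the single-strand binding protein (-1.58, standard error 0.16), Pttg1, the separase inhibitor securin (-1.01, standard error 0.13), and Cks1b, a CDK subunit (-1.13, standard error 0.15). The following counts stand beside the same all-gene shares of 22.5% lower and 18.9% higher. Of 13 E2F and late transcription factors, 4 rose and 1 fell, and of 11 CDK activators, 1 rose and 5 fell. Of 21 genes of origin recognition and activation, 7 fell and none rose, and of 29 polymerase and fork genes, 9 fell and 3 rose. Of 42 spindle, kinetochore and cytokinesis genes, 7 fell and 2 rose, and 16 had the VA-free mice between the control mice. Among 7 CDK inhibitors, which hold the cycle in check, 4 fell and none rose. Cdkn1a, the inhibitor p21, was at 480 ± 58.6 CPM on the VA-free diet (SD, n = 3) and 1186 ± 13.3 CPM on the control diet (SD, n = 2), with log2 fold change -1.31 (standard error 0.14). Its control libraries 1A, 1B, 2A and 2B were at 1237, 1064, 1741 and 749 CPM, so the spread within control mouse 2 was far larger than that between the control mice.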

How the data were processed

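MuSC RNA of 3 VA-free and 2 control mice was measured in 8 libraries. The authors estimated counts per transcript with Kallisto 0.46.2 against GRCm38 and deposited these estimated counts, without normalization, and TPM, the same estimates divided by effective length and scaled to a fixed total. The mapping of 116816 transcripts to genes left out 0.647% to 0.756% of counts. Counts were summed per gene, technical replicates were added, and sums were rounded. The test of diet used edgeR 4.0.16 (R 4.3.3) on 5 mice, with TMM scaling, filterByExpr, the quasi-likelihood (QL) F test and p-values adjusted by Benjamini-Hochberg (BH) over 17997 genes at a threshold of 0.05; CPM are TMM-normalized. The standard error is the size of the log2 fold change divided by the square root of F. Alternatives used other scalings, filters, DESeq2 1.42.0, limma 3.58.1, log2(TPM + 1) and log2(TPM + 0.1), length corrections, a replicate block, and left out each mouse or library. Some of the 23 alternatives took the 8 libraries as samples, with edgeR or DESeq2, and so counted libraries of 1 mouse as independent. The code was tested on simulated counts.

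The 36 genes, the role groups and the lists were chosen with earlier results of these data known. All 36 members are named. Of the other cell cycle genes, those named are the 3 with the smallest adjusted p in each direction, and Cdkn1a was named after its values were seen. Marker lists covered MuSCs, endothelial cells, fibro-adipogenic progenitors, macrophages, pericytes and smooth muscle, tenocytes, Schwann cells, myofibers, and erythroid and lymphoid cells. Total counts were 44831232 to 88650428 per library, and counting error was not compared with the spread between mice. A member with 93 to 522 counts per library, Bub1, is the least precise by counts. Libraries of PCR-amplified cDNA carry no molecular identifiers.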

Additional observations from a re-analysis of the deposited data

Results flagged for a closer look

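In 8 of 72 groups of 4 libraries, 1 library stood apart from the other 3 by Dixon's criterion, which chance meets in about 1 of 20 groups. Libraries A and B of 1 mouse are not independent here. In control 2A, Ccne2 was at 21.68 CPM (the other control libraries at 4.60 to 5.25), Cdk2 at 111.5 CPM (74.7 to 80.2) and Rrm1 at 160.9 CPM (77.7 to 89.1). In VA-free 1B, Mcm3 was at 44.7 CPM (the other VA-free libraries at 54.8 to 56.8), Aurka at 3.381 CPM (6.12 to 6.24), Mki67 at 48.5 CPM (29.8 to 32.9) and Bub1b at 23.72 CPM (19.1 to 19.6). In VA-free 2A, Ccnb2 was at 12.76 CPM (16.2 to 16.4).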

How the results depend on the processing

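Ccnd2 and Pcna passed in the same direction in 23 of 23 alternatives, E2f2 and Tyms in 21, Birc5 in 20, Cdc6 in 17 and Cdk2 in 11. With 2 control mice, the spread on that diet rests on 1 difference between animals. The count of genes called higher, 1 with all mice, was 2 with DESeq2 on the 5 mice (21.5% of all genes tested), 3 with a transcript length offset (18.6%), 2 with the length trend removed (2152 of 17997 genes), 8 on log2(TPM + 1) (32.2%) and 10 on log2(TPM + 0.1) (32.6%). The count called lower, 6 with all mice, was 9 with DESeq2 on the 5 mice (25.0% of all genes tested), 9 with no filter on low counts (16.5%), 4 on log2(TPM + 0.1) (14.6%) and 3 on log2(TPM + 1) (14.7%). Leaving out a mouse or library gave 0 to 7 higher and 4 to 16 lower, against 9.08% to 20.5% and 16.1% to 22.7% of all genes tested. TPM shifted the median of all genes by 0.19 (pseudocount 1) or 0.35 (pseudocount 0.1). Against these shifts, the group medians on TPM were 0.24 and 0.24 for D-type cyclins, 0.34 and 0.35 for E-type cyclins, 0.62 and 0.64 for licensing, 0.27 and 0.30 for the fork, 0.080 and 0.12 for G2, and 0.38 and 0.42 for the checkpoint. With the length trend removed the licensing median was -0.16. The cause of these moves was not tested.

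Since TPM moved the median of all genes above 0, a turn of sign on it is not a reversal relative to other genes where the value lies below that shift. On TPM with pseudocounts of 1 and 0.1 the sign turned for Ccnd1 (0.29 and 0.29), Cdk4 (0.24 and 0.24), Ccne1 (0.34 and 0.35), Cdk2 (0.062 and 0.063), Mcm3 (0.39 and 0.41), Mcm6 (0.23 and 0.24), Cdc45 (0.27 and 0.30), Rrm1 (0.32 and 0.33), Rrm2 (0.45 and 0.46), Plk1 (0.22 and 0.31), Top2a (0.53 and 0.59), Aurkb (0.38 and 0.42), Bub1 (0.38 and 0.53) and Cdc20 (0.066 and 0.072). The Cdk2 and Cdc20 values lie below the shift at both pseudocounts, and those of Ccnd1, Cdk4, Mcm6, Cdc45, Rrm1 and Plk1 below it at 0.1. With the length trend removed it turned for Cdk4 (0.52), Mcm2 (-0.34), Mki67 (-0.37) and Bub1b (-0.20). With limma-voom it turned for Top2a (0.0013) and Bub1 (0.083), and with a transcript length offset for Rrm2 (0.023) and Bub1 (0.072). By estimated counts the Ccnd1 share differed by -1.68 percentage points.

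Deviations from the diet means had correlations of -0.022 and 0.0058 between same-numbered mice. With 2 control mice, whose deviations mirror each other, these values cannot show whether the numbers pair the samples. A replicate block gave 1 gene higher and 5 lower (2339 and 2903 of 17997 genes tested), with Ccnd1 at 0.098 and Mcm2 at -0.0031. Replicate 3 occurs on the VA-free diet only, so a block leaves the diet difference to mice 1 and 2 of each diet. With the replicate block and the length trend removed, 0 were higher and 3 lower by edgeR (3.97% and 9.09% of all genes). The D-type median in this fit was 0.11 and the licensing median -0.20. In that fit Ccnd1 was at 0.11, Cdk4 at 0.50, Mcm2 at -0.43, Mki67 at -0.32, Aurkb at 0.020 and Bub1b at -0.13.

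Leaving out a mouse or library moved the group medians over these ranges: D-type cyclins -0.27 to -0.076, E-type cyclins -0.56 to 0.43, fork -0.62 to 0.12, G2 -0.90 to 0.39 and checkpoint -0.86 to 0.63. The licensing genes went both ways. Without control mouse 1, Mcm2 (-0.082), Mcm5 (-0.031) and Mcm6 (-0.54) were below 0. In every such fit Cdc6 stayed below 0 (highest -0.67), and Mcm4, Mcm7 and Cdt1 stayed above 0 (lowest 0.13, 0.17 and 0.15). The Ccnd1 share ranged from -1.94 to 4.08 percentage points. Genes whose sign turned ranged as follows: Aurkb -0.63 to 0.65, Bub1 -0.86 to 1.18, Bub1b -0.0019 to 0.63, Ccnb1 -1.52 to 0.020, Ccnd1 -0.27 to 0.097, Ccne1 -0.56 to 0.43, Cdc20 -1.15 to 0.30, Cdc45 -0.62 to 0.39, Cdk6 -0.63 to 0.19, Mcm2 -0.082 to 0.26, Mcm3 -0.30 to 0.30, Mcm5 -0.031 to 0.73, Mcm6 -0.54 to 0.10, Mki67 -0.083 to 0.77, Plk1 -1.001 to 0.83, Rrm1 -0.42 to 0.12, Rrm2 -0.32 to 0.28 and Top2a -0.77 to 0.82.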
